A study of Homo sapiens with 2 samples.

Results

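The genes described here are 26 DNA-binding transcription factor genes and 1 read-through gene with a zinc finger description, ZNF8-ERVK3-1, 27 of the 425 genes that the authors listed as different between 2 cultures of HES2, an established human embryonic stem cell line. Within that list they were chosen by name and description, with earlier results of these data known. Every gene of the list had already been called different on the values of these same 2 cultures. A listed gene with a symbol was a member when its protein description contained zinc finger, homeobox, forkhead, helix-loop-helix, transcription factor or early growth response. Of the 34 such genes, 7 were left out by name because they belong to other groups (the mesendoderm genes SOX17, GATA6, LHX1 and MIXL1, and CDX4, BHLHE40 and ZFP42). One culture expressed PB, the control, whose name the labels do not spell out. The other expressed PB-Tfcp2l1ΔCP2, by its name a form of the pluripotency factor Tfcp2l1 without a part called CP2. Both cultures spent 2 passages in medium with 10% KSR, 10 ng/ml FGF2 and as much Activin A, and each gave 1 RNA-seq library. The labels do not say which promoter drives the insert or whether the cells are a clone. With 1 library per group there is no replicate check and no test between conditions, and every value below describes these 2 libraries.

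Sequence-specific transcription factors bind short DNA motifs through a folded domain, and that domain defines their family. Forkhead, homeodomain, helix-loop-helix, T-box, SOX and AP-2 factors are known mostly as developmental regulators, and many of them are silent or barely transcribed in pluripotent cells. KRAB zinc finger proteins form the largest family and mainly recruit repressive chromatin to transposable elements. EGR1 is an immediate early gene, switched on within minutes of growth factor or stress signalling by serum response factor at CArG boxes, and SP5 is a direct target of WNT signalling through TCF/LEF sites.

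The 250 bases before the start of 4 members are shown because these are the members with the largest fold (FOXB2), the highest value (HES3) and a well-known signal-responsive promoter (EGR1 and SP5). They are the RefSeq reference, build GRCh38.p14, on the plus strand at chr5:138465229-138465478 for EGR1, chr1:6243929-6244178 for HES3, chr2:170715087-170715336 for SP5 and chr9:77019405-77019654 for FOXB2. Capitals mark CArG boxes in EGR1 and HES3, TCF/LEF letters (CTTTG followed by a pair drawn from A and T, on either strand) in SP5, and the tandem site of the CP2 family in FOXB2.
EGR1: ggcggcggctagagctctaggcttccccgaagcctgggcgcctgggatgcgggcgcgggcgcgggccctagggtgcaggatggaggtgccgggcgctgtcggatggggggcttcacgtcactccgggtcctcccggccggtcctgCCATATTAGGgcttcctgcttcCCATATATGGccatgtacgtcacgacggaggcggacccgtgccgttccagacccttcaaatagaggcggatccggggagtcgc
HES3: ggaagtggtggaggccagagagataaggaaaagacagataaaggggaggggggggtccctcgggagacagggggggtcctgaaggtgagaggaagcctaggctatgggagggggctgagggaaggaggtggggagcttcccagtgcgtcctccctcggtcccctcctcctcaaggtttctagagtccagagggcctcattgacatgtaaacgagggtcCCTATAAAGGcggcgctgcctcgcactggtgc
SP5: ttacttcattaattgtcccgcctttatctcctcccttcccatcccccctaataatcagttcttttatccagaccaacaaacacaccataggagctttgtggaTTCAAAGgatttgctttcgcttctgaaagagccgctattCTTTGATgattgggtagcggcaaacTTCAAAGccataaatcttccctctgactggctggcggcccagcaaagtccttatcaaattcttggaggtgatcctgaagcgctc
FOXB2: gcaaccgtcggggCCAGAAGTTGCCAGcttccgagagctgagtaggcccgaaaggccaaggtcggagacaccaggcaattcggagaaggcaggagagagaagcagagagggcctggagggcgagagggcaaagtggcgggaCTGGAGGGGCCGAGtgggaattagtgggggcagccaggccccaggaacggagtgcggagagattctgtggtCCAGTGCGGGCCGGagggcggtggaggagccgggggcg

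Searched on both strands, EGR1 has 2 CArG boxes in this window, from base -105 to -96 and from -83 to -74 before the start; 11 of all 35116 RefSeq windows of this length hold 2 or more (0.0313%). HES3 has 1, from -32 to -23, whose letters CCTATAAAGG overlap a TATA box. At least 1 CArG box stands in 407 of all windows (1.16%), and in 5 of the 33 windows of the 24 members that have a RefSeq window: those of EGR1, HES3, FOXP2, ZBTB22 and POU3F4. The first 4 genes had the higher value in the PB-Tfcp2l1ΔCP2 library and POU3F4 the lower, where 66.7% of all members were higher. SP5 has 3 TCF/LEF matches, and 43 of all windows have 3 or more (0.122%). One or more stand in 12.0% of all windows and in those of 2 members, SP5 and FOXP2. The CP2 tandem site is too loose to single out genes, with a match in 54.3% of all windows and in 19 of the 33 members' windows. In EGR1 a CP2 match ends directly before the first CArG box, and in FOXB2 there are 3 matches. A match of letters is a description and does not show that a factor binds there.

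**Figure D1:**
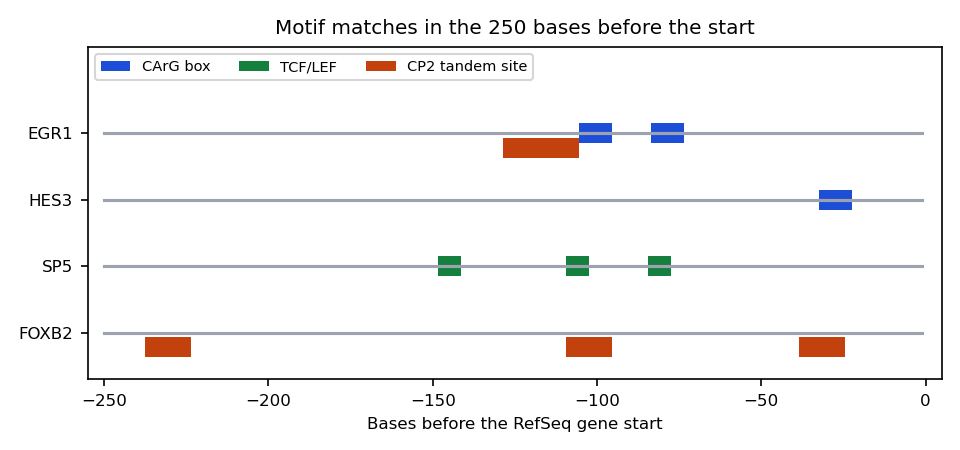
Position of CArG boxes (blue), TCF/LEF matches (green) and CP2 tandem sites (orange) in the 250 bases before the RefSeq start of 4 genes; the horizontal axis is the distance from the start in bases. EGR1 has 2 CArG boxes, HES3 has 1 next to its start, and SP5 has 3 TCF/LEF matches.

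With PB-Tfcp2l1ΔCP2, 18 of the 27 genes were higher and 9 were lower. That is 66.7% higher and 33.3% lower, where the whole list of 425 had 47.3% higher by 2-fold or more and 52.7% lower by as much. The median log2 ratio of the members was 1.29, beside -1.03 over all listed genes. Both medians fall on called genes, since every gene in the authors' deposited table is at least 2-fold apart, so neither is a level of overall change. The higher members had a median value of 0.315 in the control and 1.19 with PB-Tfcp2l1ΔCP2, beside 0.4 and 1.38 for all listed genes that were higher. The lower members had medians of 2.20 and 0.72, beside 2.16 and 0.815 for all that were lower. Within each direction the members' medians were thus near those of the whole list, though fewer members reached high values (below). In bulk RNA, more or fewer cells that transcribe a gene and more or less RNA per cell cannot be told apart.

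As a group these genes were weakly expressed. The deposited expression value has no named unit. Where it was 0.4 or more, reads per unit of value and kilobase ran only from 21.1 to 24.5 over the members, so that it scales with reads per length and members can be set side by side. In 11 of 27 members (40.7%) it stayed under 1 in both libraries, beside 31.5% of all listed genes. Only HES3 and ZNF425 reached 5 or more, which is 7.41% of members beside 20.9% of all listed genes. Whole reads could be recovered from the authors' p-values for all 27 (a median of 108 reads over both libraries, from 24 to 670). Folds below are ratios of these reads, corrected for a ratio of library totals of 1.02, with 95% counting intervals that leave out any spread between cultures.

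**Figure D2:**
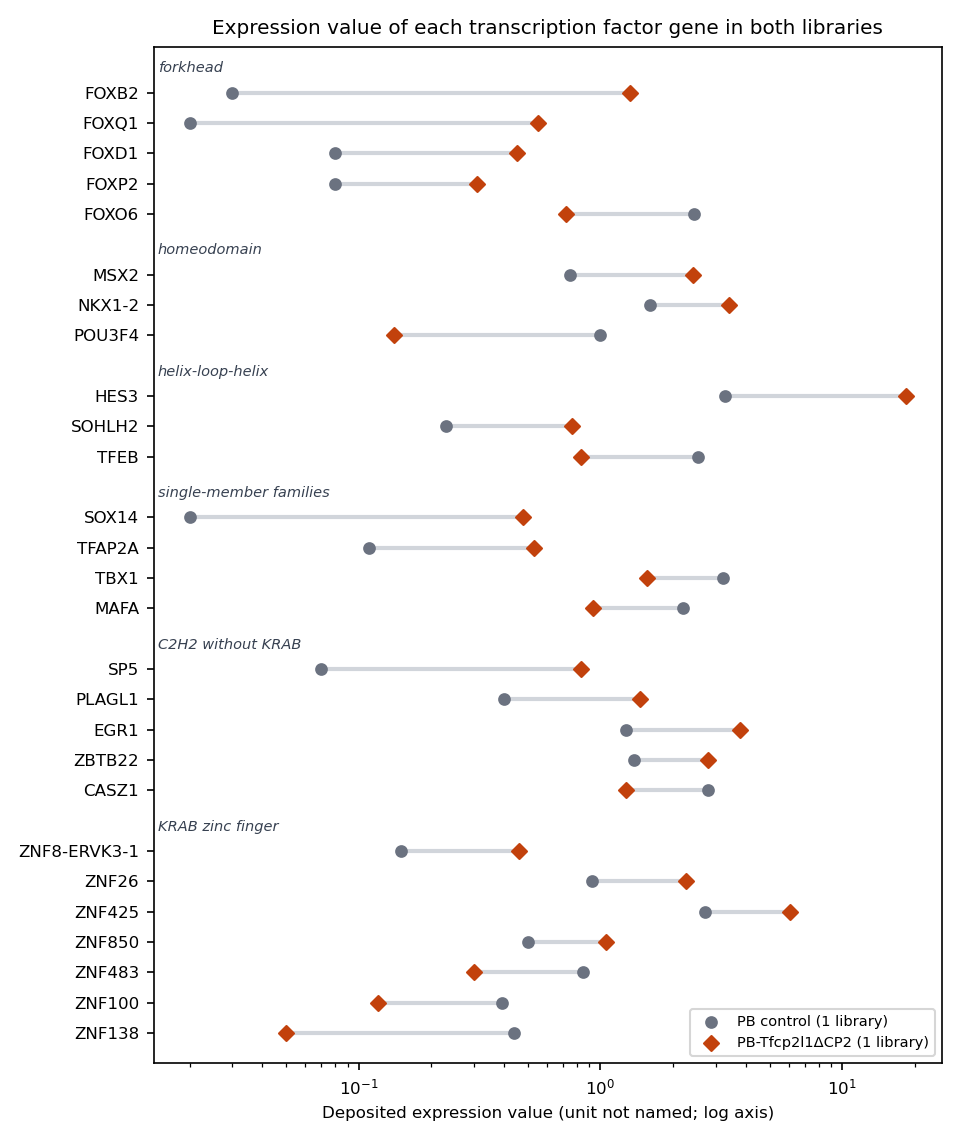
Deposited expression value of the 27 genes in the PB control (grey circles) and PB-Tfcp2l1ΔCP2 (orange diamonds) libraries, 1 library each, on a log axis and grouped by family. HES3 has the highest value (18.4), and FOXB2, FOXQ1 and SOX14 lie at 0.02 or 0.03 in the control.

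The forkhead family had 5 members, 4 higher and 1 lower. FOXB2 (Gene ID 442425) had values of 0.03 (control, given first throughout) and 1.32 (PB-Tfcp2l1ΔCP2), on 1 and 39 reads, or 38.1-fold higher (95% counting interval 6.45 to 1544). FOXQ1, known for its role in hair follicle differentiation, was at 0.02 and 0.55, on 1 and 30 reads. Both were thus all but absent from the control, and their upper bounds are set by a single read. FOXD1, a factor of the kidney stroma, was at 0.08 and 0.45 on 4 and 24 reads, 5.87-fold higher (2.02 to 23.3). FOXP2, known from speech disorders and brain development, was at 0.08 and 0.31 on 12 and 40 reads, 3.26-fold higher (1.68 to 6.82). The 2 values of FOXP2 have a ratio of 3.88, above the fold of its reads but inside the interval. The intervals of these 4 genes all hold the range from 6.45 to 6.82. FOXO6, of the FOXO subfamily, went the other way from a higher start: 2.43 and 0.72 on 145 and 44 reads, 3.37-fold lower (2.39 to 4.84). It was the only forkhead member with a control value of 1 or more. With at least 50 reads required, FOXP2 alone remains among the 4 higher forkhead genes.

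The homeodomain family had 3 members. The homeodomain genes MIXL1 (2.68 and 7.27), LHX1 (0.19 and 1.08) and CDX4 (1.84 and 5.73) were left out by name and were all higher. MSX2, a BMP-responsive regulator of craniofacial and limb development, was at 0.75 and 2.42 on 38 and 126 reads, 3.24-fold higher (2.24 to 4.79). NKX1-2, which marks the caudal epiblast beside the primitive streak, was at 1.60 and 3.41 on 34 and 74 reads, 2.13-fold higher (1.40 to 3.29). POU3F4, a POU-homeodomain factor of the inner ear and forebrain, was at 1.00 and 0.14 on 34 and 5 reads, 6.96-fold lower (2.71 to 22.8). The counting interval of NKX1-2 includes 2-fold; those of MSX2 and POU3F4 do not. No gene of a list of 20 HOX and HOX cofactor genes was in the table.

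Among the helix-loop-helix genes HES3 (Gene ID 390992), a repressor of the HES family known for holding neural progenitors undifferentiated, had the highest value of any member. Its values were 3.26 and 18.4, on 48 and 276 reads. Its 5.62-fold increase (4.13 to 7.81) has the narrowest interval among the 7 members at least 4-fold higher by value, because the gene is well covered in both libraries. Of a list of 23 Notch pathway, HES and HEY genes, HES3 was the only one in the table; the others were not analysed here. SOHLH2, a germ cell factor, was at 0.23 and 0.76 on 9 and 38 reads, 4.13-fold higher (1.96 to 9.71), while its values alone have a ratio of 3.30. It lies within the longer read-through gene CCDC169-SOHLH2 in RefSeq, and the split of reads between the 2 is not stated. TFEB, the master regulator of lysosome and autophagy genes, was at 2.53 and 0.83 on 136 and 45 reads, 3.09-fold lower (2.19 to 4.43). None of a list of 25 ID and other helix-loop-helix genes was in the table, but that list does not cover the family. The helix-loop-helix genes BHLHE40 and SREBF1 are outside it, are not members and were in the table. BHLHE40, left out by name, was at 6.36 and 1.58 on 450 and 114 reads, 4.04-fold lower. SREBF1 was higher, at 24.45 and 51.96, and its reads were not recovered.

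AP-2, SOX, T-box and MAF factors had 1 member each. TFAP2A, an AP-2 factor of neural crest, epidermis and trophoblast, was at 0.11 and 0.53 on 10 and 41 reads, 4.01-fold higher (1.97 to 8.97). SOX14, a group B SOX repressor of the developing nervous system, was at 0.02 and 0.48 on 1 and 23 reads, 22.5-fold higher (3.65 to 926). Both stayed below 1. TBX1, the T-box gene of the pharyngeal arches, was at 3.22 and 1.55 on 150 and 74 reads, 2.07-fold lower (1.56 to 2.78). MAFA, the leucine zipper factor that activates the insulin gene in beta cells, was at 2.20 and 0.93 on 120 and 52 reads, 2.36-fold lower (1.69 to 3.33). TBX1 overlaps GNB1L in RefSeq. The T-box genes EOMES and T and the SOX gene SOX17 are listed but not members, and were higher. EOMES was at 0.11 and 3.06 on 8 and 256 reads, and T at 0.05 and 0.93 on 3 and 53 reads. SOX17 was at 0.06 and 0.89 on 3 and 49 reads. MAFA was the only listed gene of 28 in a list of ATF, C/EBP, CREB and MAF factors.

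TFAP2A and MSX2 are the 2 listed genes of 25 in a list of non-neural ectoderm and neural crest factors, and both were higher. TFAP2A was also the only listed gene of 7 trophoblast markers and of 5 neural crest markers, so the other markers of those cell types give no value here and their part in the result was not tested. Of 8 neuroectoderm markers only NCAM1 was listed, lower, and of 7 fibroblast markers only COL1A1, also lower. None of 10 pluripotent stem cell markers was listed, so the labelled cell type could not be checked against its defining genes.

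Zinc finger genes of the C2H2 type without a KRAB domain had 5 members, 4 higher and 1 lower. SP5, whose promoter is shown above, was at 0.07 and 0.83 on 3 and 38 reads, 12.4-fold higher (3.93 to 62.7). EGR1, the other promoter with known signal response, was at 1.27 and 3.76 on 92 and 279 reads, 2.96-fold higher (2.33 to 3.79). The interval of EGR1 lies below that of HES3, and below that of SP5. PLAGL1, an imprinted growth regulator, was at 0.40 and 1.45 on 33 and 116 reads, 3.44-fold higher (2.32 to 5.22); it overlaps the imprinted non-coding gene HYMAI. ZBTB22, a BTB zinc finger gene, was at 1.38 and 2.78 on 85 and 175 reads, 2.01-fold higher (1.54 to 2.64), at the edge of the table's 2-fold limit. CASZ1, the castor zinc finger factor of heart and vessel development, was the lower one, at 2.78 and 1.28 on 364 and 172 reads, 2.16-fold lower (1.80 to 2.61). This split holds for the members only. Among listed C2H2 genes that are not members, BCL6 (4.92 and 1.20), BCL6B (2.63 and 1.20) and ZFP42 (5.08 and 1.99) were lower. KLF9 was also lower and KLF11 higher (values below).

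The partners of these genes were read from lists. Of 31 immediate early genes 4 were listed and all 4 were higher, where 47.3% of all listed genes were. They were EGR1, JUN (5.92 and 13.6, 2.29-fold, 2.05 to 2.56), CYR61 (2.38-fold, 2.12 to 2.68) and CTGF (2.11-fold, 1.91 to 2.33). The interval of CTGF includes 2-fold. The list was made with earlier results of these data known. No other EGR gene and no NAB co-repressor of EGR was listed among 9 EGR partner and target genes. Of 26 SP and KLF genes 3 were listed. KLF11, a TGF-beta inducible repressor, was at 3.72 and 7.70 on 351 and 742 reads, 2.07-fold higher (1.82 to 2.35). KLF9, known as a hormone-responsive repressor, was at 0.68 and 0.25 on 83 and 31 reads, 2.74-fold lower (1.79 to 4.28). The family was thus split, with SP5 and KLF11 higher and KLF9 lower. Of 25 forkhead genes in a list 3 were listed, FOXD1, FOXP2 and FOXQ1, all higher; FOXB2 and FOXO6 are outside that list. The table holds 6 forkhead genes in all. The sixth, FOXA2, a factor of endoderm, is neither on that list nor a member and was at 0.01 and 0.37, on 0 and 21 reads.

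**Figure D3:**
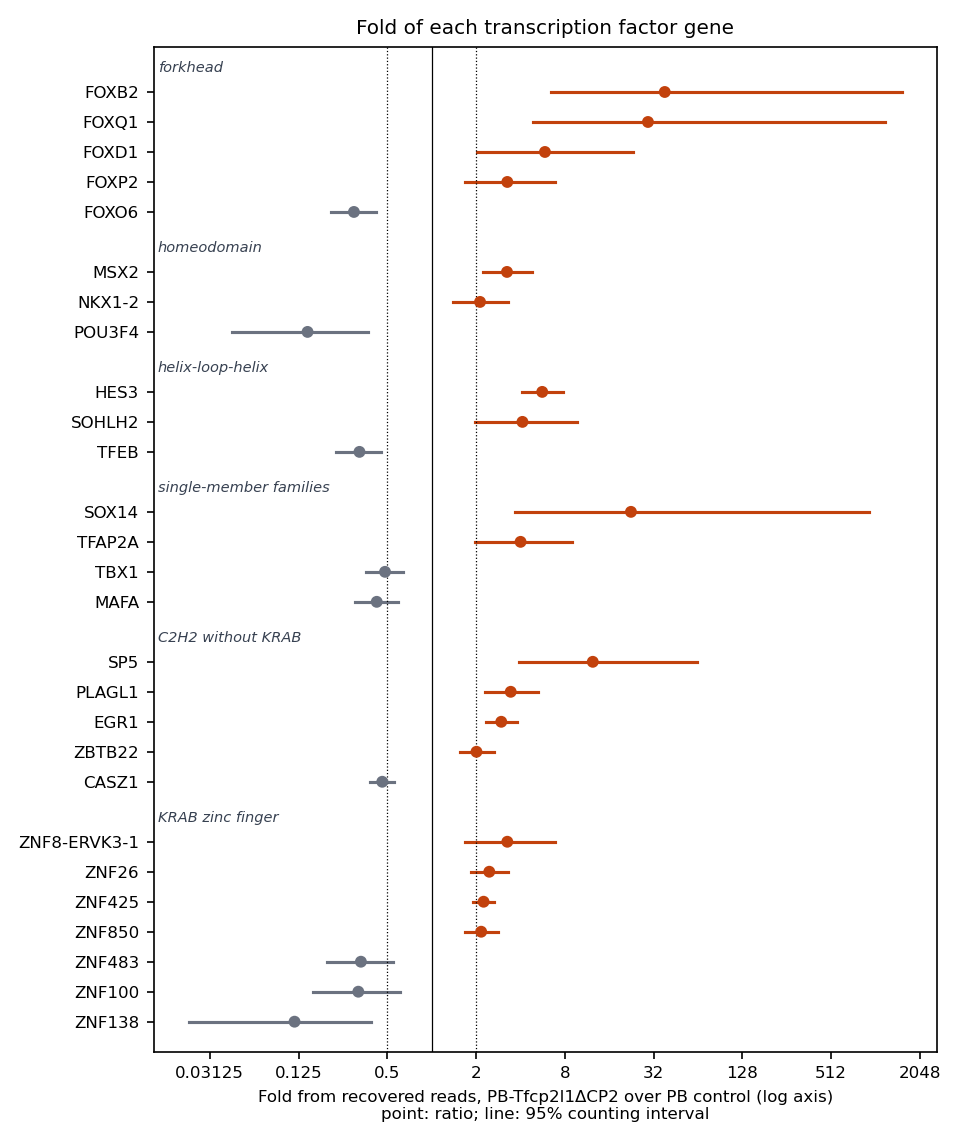
Fold of recovered reads in the PB-Tfcp2l1ΔCP2 over the PB control library for the 27 genes (points) with 95% counting intervals (lines), on a log axis; dotted lines mark 2-fold either way. The intervals of FOXB2, FOXQ1 and SOX14 are wide because each has 1 control read, while those of EGR1, ZNF425 and CASZ1 are narrow.

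KRAB zinc finger genes, assigned by the KEGG orthology in the authors' deposited table, were divided: 4 higher and 3 lower of 7. The table gives the same orthology to IFRD1 and ZFP42, which are not KRAB zinc finger genes, so it is no proof of the domain. ZNF425 was at 2.70 and 6.08 on 203 and 467 reads, 2.25-fold higher (1.90 to 2.67), the best covered of all members. ZNF26 was at 0.92 and 2.25 on 68 and 171 reads, 2.46-fold higher (1.85 to 3.31). ZNF850 was at 0.50 and 1.05 on 88 and 195 reads, 2.17-fold higher (1.68 to 2.82). These 3 increases are alike in size, and each interval includes 2-fold. The fourth, ZNF8-ERVK3-1, is a read-through gene that RefSeq classes as non-coding and that overlaps ZNF8 and ERVK3-1. It was at 0.15 and 0.46 on 12 and 40 reads, and the split of reads among the overlapping genes is not stated. Without it 17 members were higher.

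The lower KRAB genes had low values. ZNF138 (Gene ID 7697) was at 0.44 and 0.05 on 25 and 3 reads, 8.52-fold lower (2.60 to 44.1), the largest decrease of any member. ZNF100 was at 0.39 and 0.12 on 40 and 13 reads, 3.15-fold lower (1.65 to 6.41). ZNF483, which also has a SCAN domain, was at 0.85 and 0.30 on 65 and 22 reads, 3.02-fold lower (1.84 to 5.15). All 3 stayed below 1. The row of ZNF138 also carries a selenophosphate synthetase description, and the pseudogene SEPHS1P1 overlaps it in RefSeq. ZNF483 overlaps PTGR1. KRAB zinc finger genes are a family of related sequences, and how reads that fit several of them were counted is not given in the sources used here, so their values are uncertain to that extent.

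By the ratio of their values, 7 members were at least 4-fold higher (FOXB2, FOXQ1, SOX14, SP5, HES3, FOXD1 and TFAP2A) and 2 at least 4-fold lower (ZNF138 and POU3F4), beside 16.9% and 12.2% of all listed genes. Of those 7, HES3 alone had more than 10 reads in the control. Counting intervals lay wholly beyond 2-fold for 9 higher members (FOXB2, FOXQ1, SOX14, SP5, HES3, FOXD1, PLAGL1, MSX2 and EGR1) and 4 lower members (ZNF138, POU3F4, FOXO6 and TFEB). Over the 411 listed genes with recovered reads these shares were 25.8% and 20%. Ordered by value in the PB-Tfcp2l1ΔCP2 library, HES3 (18.4) led, followed by ZNF425 (6.08), EGR1 (3.76), NKX1-2 (3.41) and ZBTB22 (2.78).

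**Figure D4:**
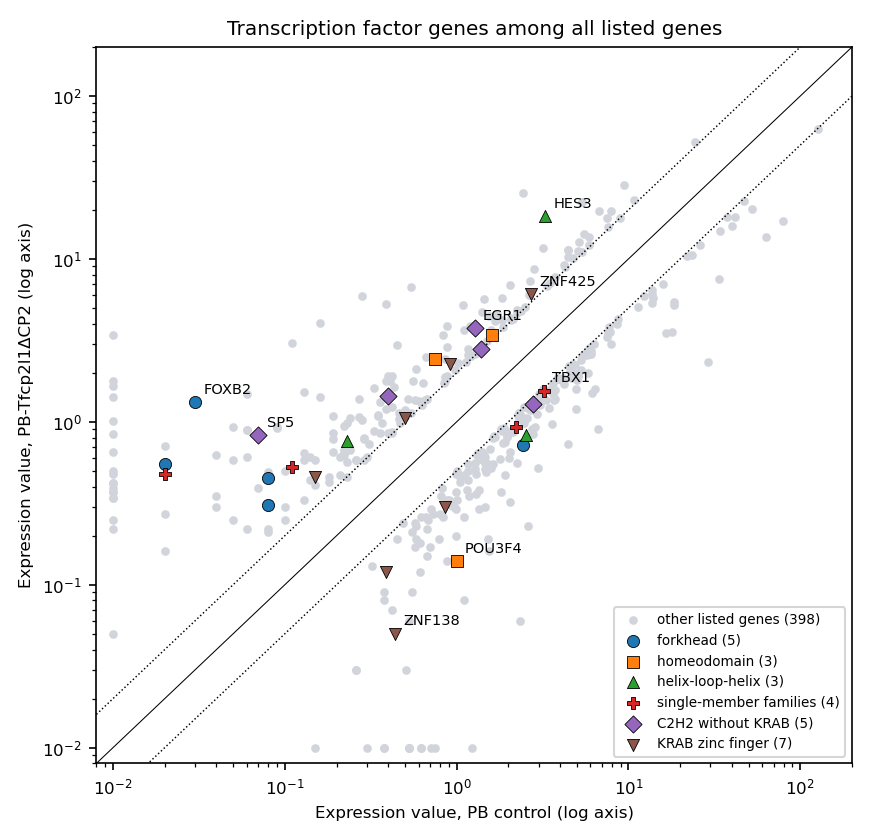
Expression value in the PB-Tfcp2l1ΔCP2 library against that in the PB control for all listed genes (grey) and the 27 genes by family, both axes log; the solid line is equality and dotted lines are 2-fold. The empty band within 2-fold reflects that the table lists called genes only, and FOXQ1, SOX14 and FOXB2 have the lowest control values of the 27 genes (0.02, 0.02 and 0.03).

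The table's biological process terms named development or morphogenesis for 12 of 27 members (44.4%), beside 22.3% of the 368 listed genes with a symbol. Among the higher members these were 9 of 18 and among the lower 3 of 9. The description words pick families known mostly as developmental regulators, so the larger share among members is no separate result. A molecular function term of DNA or nucleic acid binding or transcription was given for 21 of 27, beside 14.4% of the listed genes with a symbol; the description words that chose the members are close to these terms. In RefSeq 14 of the 27 (51.9%) overlap another gene or pseudogene, beside 57.1% of the listed genes with a symbol, and none of the overlapping genes was itself listed. The 13 members without an overlap were 10 higher and 3 lower.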

How the data were processed

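RNA from 2 HES2 cultures, 1 per group, was sequenced on the BGISEQ-500 per the labels' protocols. The submitters' processing notes name Bowtie 0.12.2 and hg19 without a role; the counter, annotation and test remain not given in the sources used here. The authors' deposited table gives a gene length and an expression value per library, treated as a signal whose unit is not named per the file headers. Its log2 fold change, as deposited, is the plain log2 of the quotient of both values. P-values and FDR (at most 0.000984 here) from the authors' deposited test compare libraries, not conditions, and every listed gene is at least 2-fold apart.

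Whole reads were recovered as the only pair giving the deposited p-value (2-sided Audic and Claverie formula, relative tolerance 5e-06, searched at 10 to 60 reads per unit of value and kilobase) for 411 of 425 rows and all members. Library totals are not in the table. Their ratio, 1.02, was first set from 19 rows with a control value of 0.01. It was then refined on rows with both values above 0.01, so that the most rows had a matching pair. The search took only pairs whose ratio, corrected for library totals, lay near the ratio of the 2 values. The search was tested on simulated data with the true ratio of library totals supplied, so the estimate of that ratio was not tested. Intervals are exact conditional binomial (Clopper-Pearson) at 95%, cover counting error only, and treat reads as independent molecules. The text names every member. Members, families, lists and motifs were chosen with earlier results of these data known. All 27 Gene IDs matched RefSeq (GRCh38.p14), 24 with a promoter window. Protein zinc fingers were planned but not counted. No value column belonged to another sample. Python 3.11.15, SciPy 1.17.1 and pandas 2.3.3 were used. Alternatives were other pseudocounts, filters, limits and scaling.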

Additional observations from a re-analysis of the deposited data

How the results depend on the processing

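With no pseudocount 18 members were at least 2-fold higher and 9 lower. These counts were 3 and 0 on log2(value + 1), 8 and 3 on log2(value + 0.5), 7 and 2 at 4-fold, and 9 and 4 where the counting interval lay beyond 2-fold. Requiring a value of at least 1 in 1 library gave 10 and 6. With 50 or more reads they were 12 and 7, and with DNA-binding factors only 17 and 9. Without members that overlap another gene, an alternative chosen after seeing the data, 10 and 3 remained. Scaling to the total of the listed genes left 18 higher and 6 lower. That factor of 1.27 rests on called genes only and turned no direction, with the lower members then 1.63-fold to 6.72-fold lower. It moved 2 folds outside their counting interval, ZNF425 to 2.85 and CASZ1 to 0.586 (PB-Tfcp2l1ΔCP2 over control); the other 25 stayed inside. The ratio of the 2 values lay inside the interval for all 27, which was largely built in. The search for reads took only pairs with a ratio near that of the values. With 50 or more reads the higher forkhead genes went from 4 to 1, the higher helix-loop-helix genes from 2 to 1, the higher genes of the 4 families with a single member from 2 to 1, and the lower homeodomain genes from 1 to 0. Fewer genes pass a filter or a stricter limit by construction. No paired analysis was possible because the groups hold a single library each. Depth limits FOXB2, FOXQ1, SOX14, SP5, FOXD1, ZNF138 and POU3F4 most, with 1 to 5 reads in their lower library.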

Other observations

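Other listed regulators of transcription lie outside the description words, and the examples given here were chosen after their values were seen. They do not give the balance of higher and lower among such genes. KDM6B, TLE2 and SKOR2, for instance, were lower, and BMI1 and PCGF5 higher. VDR, the vitamin D receptor gene, was at 0.15 (control) and 0.58 (PB-Tfcp2l1ΔCP2) on 16 and 65 reads, 3.97-fold higher (95% counting interval 2.27 to 7.35). PHF21B, a PHD finger gene, was at 6.71 and 19.6 on 887 and 2800 reads, 3.09-fold higher (2.86 to 3.33). MYB, a proto-oncogene factor of progenitor cells, was at 2.31 and 1.04 on 186 and 83 reads, 2.29-fold lower (1.76 to 3.01).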
